A study of Mus musculus with 36 samples.

Results

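Mouse embryonic stem cells (ESC) of the E14 line, and neural precursor cells (NPC) derived from them with retinoic acid, were compared for the transcripts of 10 genes that are high in ESC and lost on differentiation: Pou5f1, Utf1, Otx2, Dppa4, Dppa5a, Tdgf1, Gdf3, Trh, Ooep and Nphs1. They are 10 of 51734 gene symbols in the count table, and all 10 were among the 20511 genes that passed a filter on low counts, which they passed through their ESC level. The genes were chosen by their measured NPC and ESC levels in these libraries, because more transcript was left in NPC of the MLL2 degron line than in wild-type NPC. The ESC to NPC fall and the wild-type against MLL2 degron difference are therefore descriptions here, given with no test. A further line, in which MLL3 and MLL4 rather than MLL2 are altered, was compared with the same wild-type libraries, so its comparisons are not independent of the choice either.

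RNA-seq of poly(A) transcripts covered 6 groups of 3 libraries. At each stage there was a wild-type line (WT), a line whose MLL3 and MLL4 are catalytically dead (dCD), and a line with a dTAG degron on MLL2 (MLL2dTAG), through which the compound dTAG-13 directs the tagged protein to degradation. All 18 libraries are labelled as treated with dTAG-13, WT and ESC included. For NPC the compound was given at 2 µM from day 1 of differentiation together with retinoic acid, and cells were collected on day 4; how long ESC received it is not in the sources used here. Each genotype is its own line, and the labels do not say that replicates came from separate cultures, so the spread and the p-values may measure technical variation between libraries. The series lists 36 samples in 14 groups, and the other 18 samples were not analysed here.

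MLL2, MLL3 and MLL4 (genes Kmt2b, Kmt2c and Kmt2d) methylate lysine 4 of histone H3, MLL2 mainly at promoters and MLL3 and MLL4 mainly at enhancers. When stem cells leave pluripotency, the genes that hold the stem-cell state are shut down in an ordered way, and retinoic acid hastens this and directs the cells to a neural fate. The 10 genes belong to different arms of the stem-cell programme: transcription and chromatin factors, a signalling pair around NODAL, a neuropeptide precursor, an oocyte factor and a kidney adhesion protein that stem cells also express.

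Libraries held 19.4 to 46.0 M counts (M, mega), in which 23731 to 26730 genes were seen. A level of 3 counts, used as the limit of what a count of 0 allows, was 0.0662 to 0.160 CPM (the customary count unit scaled by library size) for each library. In bulk RNA, fewer cells of a type and less RNA per cell cannot be told apart. Neural markers rose in WT NPC (11 of 12 called higher than in WT ESC, against a background of 39.1% of all genes tested). Endoderm markers were present too, at a summed 475 to 491 CPM in WT NPC. The 4 Y-linked genes examined summed to 194 to 198 CPM in WT NPC and 0.415 to 0.652 CPM in MLL2dTAG NPC, 0.264% of WT. In MLL2dTAG ESC they were at 5.02% of WT, so this line differed from WT at both stages and between its own stages. The part of this in the shares below was not tested. Kmt2b RNA was 183 CPM in WT NPC and 197 CPM in MLL2dTAG NPC, which checks nothing, since the degron acts on the protein.

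Sequence upstream of the start was taken from the RefSeq promoter table (GRCm38.p6), which matched 7 of the 10 genes (not Dppa5a, Gdf3 or Dppa4). The 250 bases before the start are shown for 3 genes that behaved differently in the results below. Pou5f1 was above WT in MLL2dTAG NPC but not called in dCD NPC. Tdgf1 was above WT in both, though lower in dCD than in MLL2dTAG, and Otx2 remained near the limit of counting. Each sequence is written 5′ to 3′ on the strand of its gene, and capitals mark matches to 4 motifs searched on both strands.
Pou5f1, chr17:35505782-35506031, plus strand: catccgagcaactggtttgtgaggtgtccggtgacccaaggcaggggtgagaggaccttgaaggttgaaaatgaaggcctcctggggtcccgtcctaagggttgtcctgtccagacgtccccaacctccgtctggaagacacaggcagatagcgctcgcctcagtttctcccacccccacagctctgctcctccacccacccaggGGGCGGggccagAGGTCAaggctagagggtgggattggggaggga
Tdgf1, chr9:110946159-110946408, minus strand: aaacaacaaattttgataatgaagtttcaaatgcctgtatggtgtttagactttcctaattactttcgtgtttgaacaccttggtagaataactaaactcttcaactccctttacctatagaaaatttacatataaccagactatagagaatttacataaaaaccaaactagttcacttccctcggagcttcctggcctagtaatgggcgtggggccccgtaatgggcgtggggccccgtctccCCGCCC
Otx2, chr14:48667645-48667894, minus strand: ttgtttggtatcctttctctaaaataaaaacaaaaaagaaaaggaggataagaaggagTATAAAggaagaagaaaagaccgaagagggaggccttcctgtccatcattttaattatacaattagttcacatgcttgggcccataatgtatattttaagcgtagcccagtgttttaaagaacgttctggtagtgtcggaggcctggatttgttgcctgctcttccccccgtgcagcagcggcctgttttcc
The capitals in Pou5f1 are GGGCGG, a GC box, 45 bases before the start, and AGGTCA, a hexamer bound by nuclear receptors including those for retinoic acid, 33 bases before it. In Tdgf1 they are a GC box on the opposite strand ending at the start, and in Otx2 a TATAAA 192 bases before it. AGGTCA was found in 2 of the 7 windows (Pou5f1 and Trh) and in 14.02% of all 32851 promoter windows of this length, GGGCGG in 5 of 7 (Pou5f1, Utf1, Trh, Ooep and Tdgf1) and 32.7%, TATAAA in 1 of 7 and 12.4%, and the octamer ATGCAAAT in 0 of 7 and 1.60%. The windows held from 5 CG pairs (Nphs1) to 25 (Trh), with 8 in Pou5f1, 7 in Tdgf1 and 6 in Otx2, against a median of 6 over all windows. The Nphs1 window, chr7:30459808-30460057, lies inside the gene as used for neighbours below, which begins at 30458207. It thus belongs to a different annotated start. Motif matches and CG counts describe the letters only.

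In ESC the 10 transcripts differed widely in abundance. Per kilobase of annotated exon, the WT ESC level ran from 1086 CPM per kb for Dppa5a through 380.1 for Tdgf1, 247 for Pou5f1, 178 for Trh, 106 for Utf1, 67.2 for Dppa4, 33.3 for Ooep, 24.2 for Nphs1 and 17.4 for Gdf3 to 14.4 for Otx2, and neighbours in that order did not overlap between libraries. By NPC day 4 all 10 were lower in all 3 lines. In WT the difference was from 52.8-fold (Dppa4) to 1088-fold (Gdf3, on 4 NPC counts). What was left differed by line and by gene, as the plot of the 18 libraries shows.

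**Figure D1:**
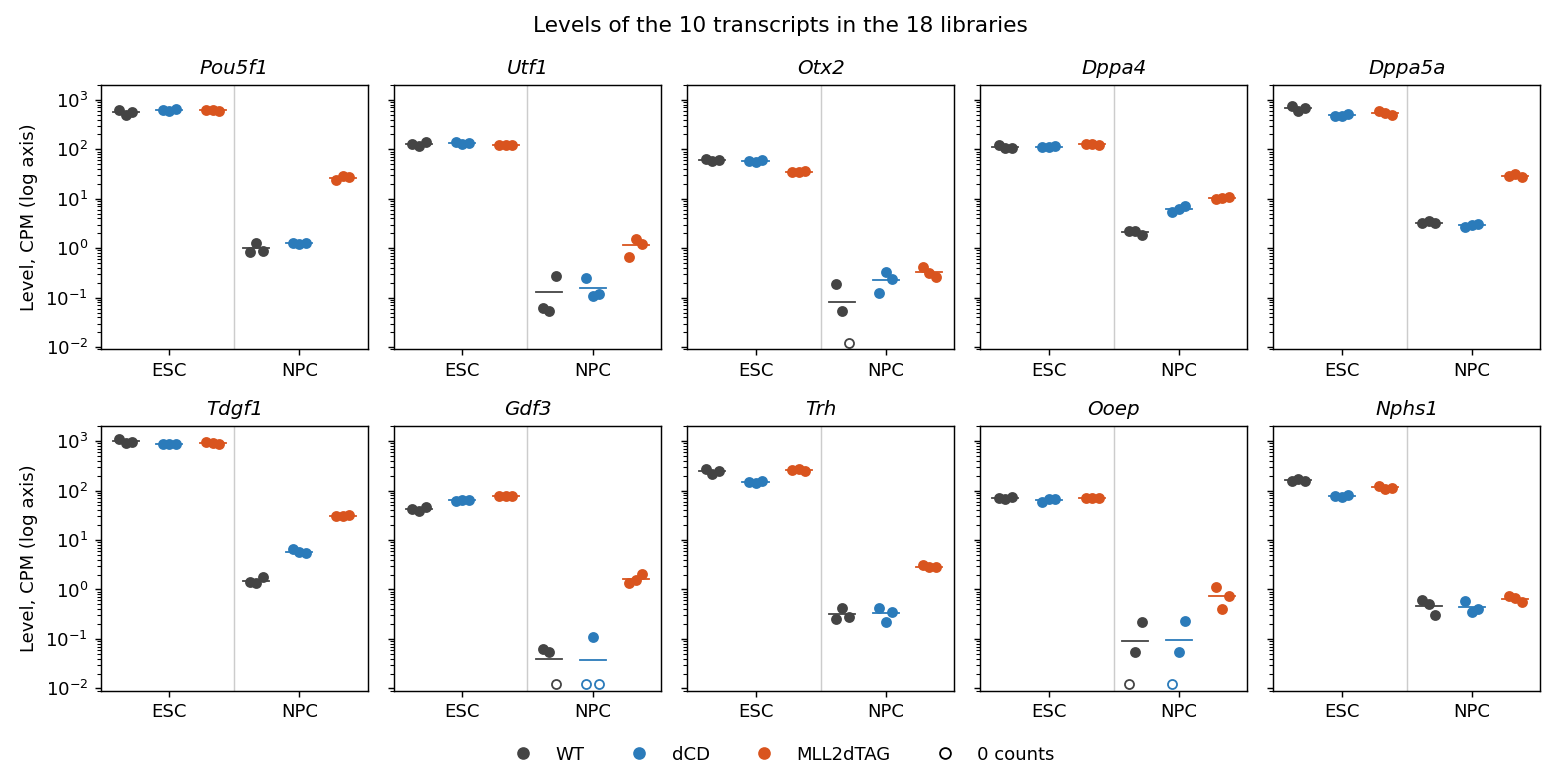
Level of each transcript in CPM (log axis) in ESC and NPC of WT, dCD and MLL2dTAG; each point is 1 library, each line the mean of 3, and open points at the bottom mark libraries with 0 counts. In NPC, MLL2dTAG libraries stand above WT for 9 of the 10 transcripts, and dCD libraries do so for Tdgf1 and Dppa4.

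Pou5f1 encodes OCT4, the transcription factor without which pluripotency collapses. Its ESC level was 555 ± 63.9 CPM in WT, 623 ± 27.7 in dCD and 619 ± 19.2 in MLL2dTAG (SD, n = 3). NPC libraries held 0.854, 1.28 and 0.893 CPM in WT, 1.29, 1.24 and 1.29 in dCD, and 24.5, 28.3 and 27.9 in MLL2dTAG. All MLL2dTAG libraries were thus far above both other lines, at a mean 26.7-fold over WT, and dCD overlapped WT. The level left in MLL2dTAG NPC was 4.34% of its ESC level (SE 0.209), against 0.182% (SE 0.0272) in WT and 0.204% (SE 0.00584) in dCD. Processed copies of this gene exist in the mouse genome, so some reads may be shared with them.

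Utf1, a chromatin-bound factor restricted to pluripotent cells and the germ line, was lower in NPC but followed the same order. NPC counts were 2, 2 and 10 in WT, 8, 4 and 4 in dCD, and 22, 70 and 47 in MLL2dTAG. The MLL2dTAG libraries lay above the rest but were spread from 0.652 to 1.54 CPM, and the share left was 0.944% (SE 0.216) against 0.102% in WT and 0.117% in dCD. Dppa4, which binds chromatin with its partner Dppa2 and helps to keep developmental promoters ready for later use, kept the highest share of its ESC level among the 10 in each line. NPC libraries held 2.28, 2.26 and 1.81 CPM in WT, 5.52, 6.32 and 7.21 in dCD, and 9.78, 10.5 and 10.7 in MLL2dTAG. The 3 lines did not overlap, and the shares were 1.90%, 5.66% and 8.24% of the ESC level, in that order.

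Otx2, a homeodomain factor of the exit from naive pluripotency and of the anterior brain, stood lower in MLL2dTAG ESC, at 34.9 ± 0.896 CPM against 61.0 ± 2.82 in WT. Its NPC values rest on few reads: 6, 2 and 0 counts in WT, 4, 12 and 8 in dCD, and 14, 14 and 10 in MLL2dTAG. In MLL2dTAG every library had more reads than any WT library, but the NPC level was at most 0.415 CPM. Because the ESC level was lower, the share left, 0.942% (SE 0.132), exceeded the WT share of 0.133% by more (7.09-fold) than the NPC level itself did (4.05-fold).

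Tdgf1 (CRIPTO) is the membrane co-receptor that NODAL and GDF3 need to signal. Its ESC level was 997 ± 81.5 CPM in WT. NPC libraries held 1.42, 1.33 and 1.79 CPM in WT, 6.50, 5.68 and 5.36 in dCD, and 30.8, 30.3 and 32.7 in MLL2dTAG. The lines formed 3 separate steps with no overlap, and the shares left were 0.152% (SE 0.0157), 0.665% (SE 0.0387) and 3.40% (SE 0.104). Tdgf1-ps1, counted as a gene of its own, had shares of 0.174%, 0.648% and 3.35% in the same order, so some reads may be shared with it. Gdf3, a ligand of the same pathway, was read 4 times over the 3 WT NPC libraries, 4 times over the dCD NPC libraries, and 46, 72 and 78 times in the MLL2dTAG NPC libraries. WT and dCD NPC were thus near the limit of counting, while MLL2dTAG NPC held 1.66 ± 0.341 CPM, 2.17% of an ESC level that was itself higher in that line (76.7 ± 0.785 CPM against 42.2 ± 3.79 in WT).

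Dppa5a encodes an RNA-binding protein of pluripotent cells and of primordial germ cells. In NPC it held 3.16, 3.51 and 3.24 CPM in WT, 2.70, 2.98 and 3.05 in dCD, and 29.1, 31.3 and 27.5 in MLL2dTAG. The dCD libraries lay below all WT libraries and the MLL2dTAG libraries far above them, and the MLL2dTAG share of 5.43% (SE 0.363) was exceeded by that of Dppa4 alone among the 10. Dppa5a has near-identical pseudogenes, so its reads may be split or shared. Its neighbour in RefSeq gene order is Ooep, a member of the maternal complex that oocytes lay down for the early embryo. Ooep had 0, 2 and 8 counts in WT NPC, 0, 2 and 8 in dCD NPC, and 38, 18 and 28 in MLL2dTAG NPC, a share of 1.08% (SE 0.302) against 0.129% in WT. Dppa5a and Ooep were both above WT in all MLL2dTAG NPC libraries, which follows from how the genes were chosen.

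Trh encodes the precursor of thyrotropin-releasing hormone, a hypothalamic neuropeptide whose transcript is also plentiful in mouse stem cells. NPC libraries held 0.253, 0.426 and 0.279 CPM in WT, 0.429, 0.221 and 0.352 in dCD, and 3.14, 2.80 and 2.79 in MLL2dTAG. WT and dCD overlapped and MLL2dTAG was 9.12-fold above WT, with a share of 1.12% (SE 0.0499) against 0.130%. Nphs1, nephrin, the adhesion protein of the kidney slit diaphragm, went against the description of the set. Its NPC libraries held 19, 19 and 11 counts in WT, 19, 13 and 14 in dCD, and 25, 30 and 21 in MLL2dTAG, or 0.601, 0.506 and 0.307 CPM, 0.582, 0.359 and 0.410 CPM, and 0.741, 0.662 and 0.548 CPM. MLL2dTAG overlapped WT in level, and its share of the ESC level, 0.563% (SE 0.0527), was no higher than that of dCD, 0.576% (SE 0.0881). Nphs1 overlaps the antisense gene Nphs1os, which had 0 counts in all NPC libraries; the strand setting of the counting is not in the sources used here.

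Ranked by what was left in MLL2dTAG NPC, the shares fell from Dppa4 through Dppa5a, Pou5f1, Tdgf1, Gdf3, Trh, Ooep, Utf1 and Otx2 to Nphs1, a 14.7-fold range. From Dppa4 to Trh each gene stood clear of the next in every library, while Trh, Ooep, Utf1 and Otx2 overlapped each other. The median share over the 10 genes was 0.142% in WT, 0.310% in dCD and 1.64% in MLL2dTAG, with an SD over NPC libraries of 0.0192, 0.0672 and 0.102. All 3 MLL2dTAG shares lay above all 3 WT shares for 10 of 10 genes, against 36.7% of all genes with an ESC level, and above all dCD shares for 9 of 10, all but Nphs1, against 37.2%. For the level itself, all MLL2dTAG NPC libraries lay above WT for 9 of 10 genes, against 36.4% of genes tested. These counts follow from how the genes were chosen. The ratio of the MLL2dTAG share to the WT share was 23.9 for Pou5f1, 23.6 for Gdf3, 22.4 for Tdgf1, 11.05 for Dppa5a, 9.28 for Utf1, 8.62 for Trh, 8.32 for Ooep, 7.09 for Otx2, 4.35 for Dppa4 and 1.91 for Nphs1. With 1 library left out, the ratio ran from 4.72 (without WT NPC replicate 3) to 21.5 (without replicate 1) for Otx2 and from 5.54 (without WT NPC replicate 1) to 28.8 (without replicate 3) for Ooep. It ran from 7.13 (without WT NPC replicate 2) to 20.99 (without replicate 3) for Utf1 and from 15.7 (without WT NPC replicate 3) to 34.3 (without replicate 1) for Gdf3. These 4 had 4 to 14 WT NPC counts, and their place in the order of ratios is not fixed by the data. The ratios of the other 6 moved by less than 1.5 times.

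**Figure D2:**
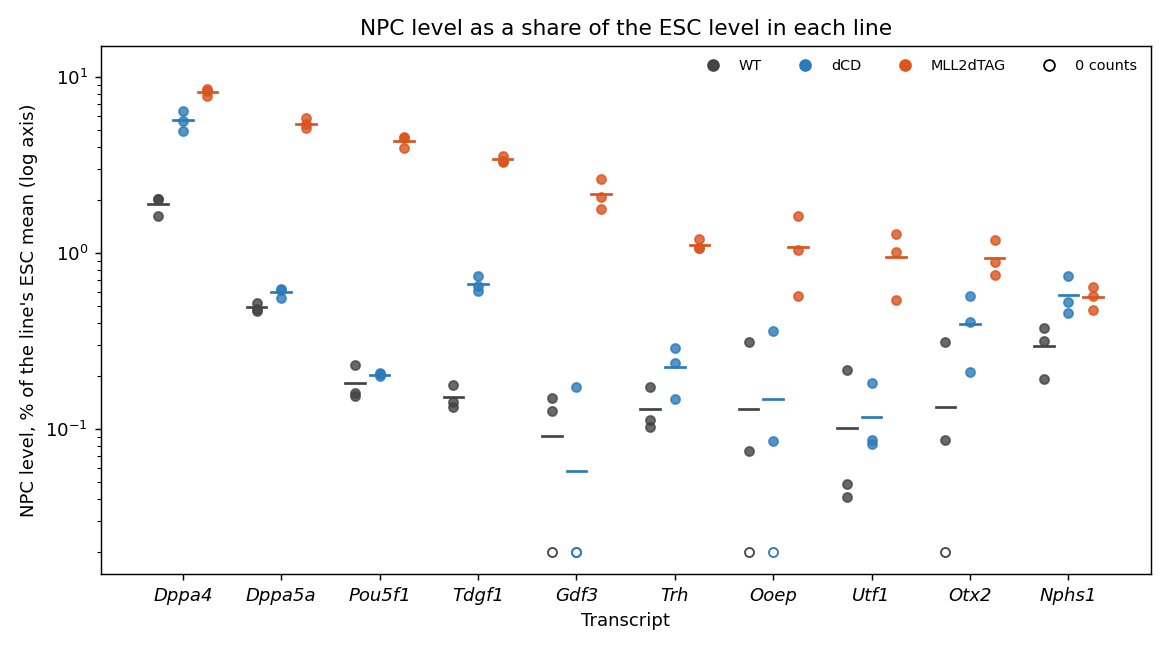
NPC level of each transcript as a percent of the mean ESC level of the same line (log axis), 1 point per NPC library and a line for the mean, ordered by the MLL2dTAG share; open points at the bottom mark 0 counts. MLL2dTAG points run from 8.24% on average for Dppa4 to 0.563% for Nphs1, where they overlap dCD.

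The absolute levels that remained were small beside ESC but not alike. Per kilobase of exon, MLL2dTAG NPC held 47.3 CPM per kb of Dppa5a, 11.96 of Pou5f1, 11.92 of Tdgf1, 6.21 of Dppa4, 2.10 of Trh, 0.930 of Utf1, 0.686 of Gdf3, 0.351 of Ooep, 0.0982 of Nphs1 and 0.0778 of Otx2. Pou5f1 and Tdgf1 overlapped between libraries, as did Utf1 and Gdf3, and Nphs1 and Otx2. Dppa3 (STELLA), a gene of naive stem cells and oocytes, lies next to Gdf3 in RefSeq order. It was at 0 counts in NPC of all 3 lines. If counts are independent, this allows at most 0.367% of the MLL2dTAG ESC level. Of the counts from 1 to 10, 60.8% to 66.5% were even, so they may not be independent and the limit may be too low. A remaining Dppa3 transcript was not detectable at this depth.

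The genes were chosen for MLL2dTAG against WT, with earlier results of these data known, so dCD was not kept apart from the choice. The dCD libraries are also compared here with the WT libraries of both stages that chose the genes. A low WT NPC level favoured a gene, which favours a higher value in dCD NPC too. A high WT ESC level could likewise favour a lower value in dCD ESC. Calls for the 10, at either stage or between stages, thus only describe where values fall against the threshold. In ESC, 6 of the 10 were called in dCD against WT at adjusted p under 0.05 (edgeR quasi-likelihood test, Benjamini-Hochberg over all genes tested), where 48.3% of all genes were called, 25.7% higher and 22.6% lower. Of the 6, 2 were higher and 4 lower. Nphs1 fell by 1.03 on the log2 scale (SE 0.05), Trh fell by 0.72 (SE 0.06), Dppa5a fell by 0.47 (SE 0.06) and Tdgf1 fell by 0.18 (SE 0.04). Gdf3 rose by 0.60 (SE 0.07) and Pou5f1 by 0.17 (SE 0.05). The Pou5f1 call was small and was lost without WT ESC replicate 2 (log2 difference 0.08), without dCD ESC replicate 3 (0.14), and with only the compared groups in the fit (0.15). Utf1, Otx2, Ooep and Dppa4 were not called, with log2 differences from -0.14 to 0.05. The median over the 10 was -0.10, against 0.02 over all genes.

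In NPC, 3 of the 10 were called in dCD against WT, all higher, where 53.5% of all genes were called, 26.7% higher and 26.8% lower. Among genes of 10 CPM or more in WT ESC that were at least 32-fold lower in WT NPC, whose choice rests on low WT values in the same way, 34.1% were called higher, close to the share of the 10. The log2 difference was 1.94 for Tdgf1 (SE 0.12) and 1.59 for Dppa4 (SE 0.11). Both kept their call in all 26 alternatives, with log2 differences from 1.85 to 2.08 and from 1.48 to 1.67. The alternatives draw on the same chosen genes and WT libraries, so they bear on processing and not on the choice. The third, Otx2, differed by 1.56 (SE 0.58), which rests on 8 WT and 24 dCD counts, near the limit of counting, and supports nothing here. Its call was lost with counts halved (1.51), without WT replicate 2 (1.35) or 3 (0.99), and without dCD replicate 2 (1.20). The other 7 were not called. Among these Pou5f1 differed by 0.32 (SE 0.24) and Dppa5a by -0.19 (SE 0.16), while Utf1 (0.22), Gdf3 (0.03), Trh (0.03), Ooep (0.03) and Nphs1 (-0.06) had standard errors from 0.31 to 1.07, the widest being those of Gdf3 and Ooep, where the depth sets little limit on the difference. All dCD NPC libraries lay above WT for 2 genes, Tdgf1 and Dppa4 (29.6% of genes tested did so), and below WT for 1, Dppa5a (30.5%). The median over the 10 was 0.12, against -0.02 over all genes.

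**Figure D3:**
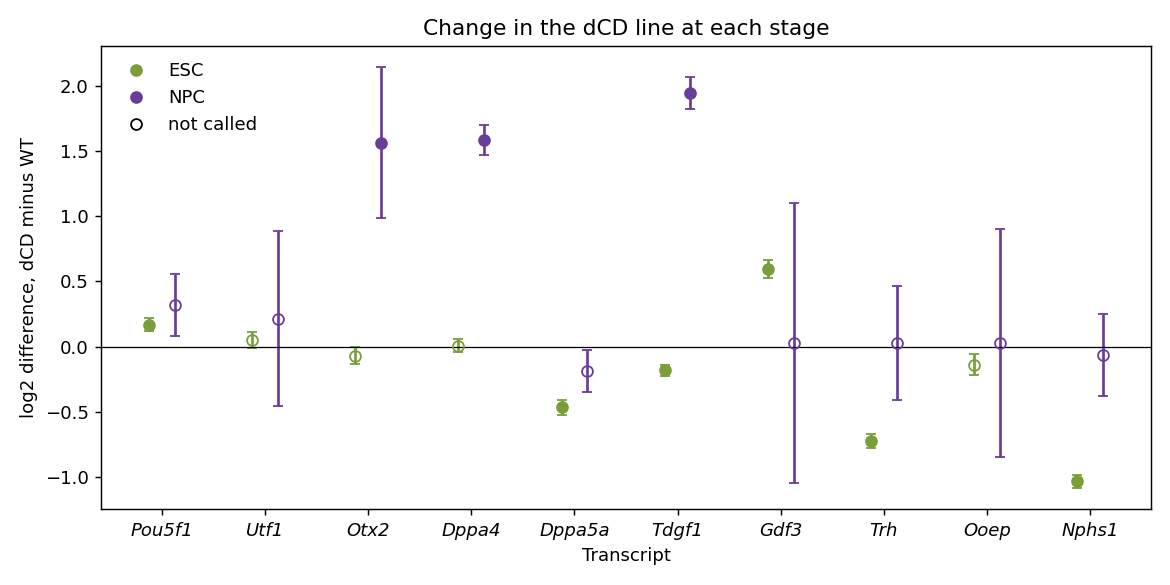
log2 difference of dCD from WT for each transcript in ESC and in NPC, with bars of 1 SE from the edgeR fit; filled points are called at adjusted p under 0.05 and open points are not. Tdgf1, Dppa4 and Otx2 are higher in NPC, between 1.56 and 1.94, while Nphs1 and Trh are the lowest in ESC.

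The difference between dCD and WT in the share left was fitted as the dCD difference in NPC minus that in ESC. It was called for 4 of the 10, all higher, where 42.9% of all genes were called and 20.0% were called higher. The low WT NPC levels that chose the 10 favour a higher value here, so the share of all genes is not what no change would give. Among the genes at least 32-fold lower in WT NPC, 37.8% were called higher, again close to the share of the 10. The difference was 2.12 for Tdgf1 (SE 0.13), 1.58 for Dppa4 (SE 0.12), 1.63 for Otx2 (SE 0.58) and 0.97 for Nphs1 (SE 0.33). For Tdgf1 and Dppa4 the NPC level was higher, and for Tdgf1 the ESC level was also slightly lower. For Nphs1 the NPC level was not called different, and the ESC level was lower. The Otx2 and Nphs1 calls were lost with counts halved (1.58 and 1.00) and without WT NPC replicate 3 (1.05 and 0.74); that of Otx2 also without WT replicate 2 (1.42) or dCD replicate 2 of NPC (1.27), and that of Nphs1 also without dCD NPC replicate 1 (0.75). Dppa5a, at 0.28 (SE 0.17), was called only without WT ESC replicate 2 (0.36). All dCD shares lay above all WT shares for Dppa5a, Nphs1, Tdgf1 and Dppa4, 4 of 10, against 29.4% of all genes with an ESC level. The dCD share was 4.38 times the WT share for Tdgf1, 2.99 for Dppa4 and 1.96 for Nphs1. For Otx2 it was 2.98 times, or 1.98 without WT NPC replicate 3 and 9.04 without replicate 1. For the other 6 it was 0.625 to 1.73 times, and with 1 library left out it ran from 0.831 (without dCD NPC replicate 1) to 2.61 (without WT NPC replicate 3) for Utf1, from 0.330 (without dCD NPC replicate 3) to 3.99 (without WT NPC replicate 3) for Ooep, and from 0 (without dCD NPC replicate 2) to 0.939 (without dCD NPC replicate 3) for Gdf3.

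The 10 genes were set beside all genes of similar behaviour in WT, those of 10 CPM or more in WT ESC that fell at least 32-fold in WT NPC. There were 135, the 10 and Tdgf1-ps1 included. Since low WT NPC values choose these genes, as they did the 10, another line tends to lie above WT in them, and values for both lines are given. Of the 135, 104 (77.0%) were called higher in MLL2dTAG NPC and 46 (34.1%) in dCD NPC (edgeR quasi-likelihood, adjusted p under 0.05). All 3 shares lay above all 3 WT shares for 74.1% of the 135 in MLL2dTAG and for 37.0% in dCD, and all MLL2dTAG shares above all dCD shares for 54.1%. The median share over the 135 was 1.18% in WT, 1.32% in dCD and 3.04% in MLL2dTAG. Its ratio to WT had a median of 2.997 in MLL2dTAG and 1.36 in dCD over the 132 genes with a WT share above 0, against 8.95 and 1.47 over the 10. By log2 difference in MLL2dTAG NPC, Gdf3 ranked 5 of the 135, Pou5f1 7, Tdgf1 10, Trh 29, Dppa5a 30, Utf1 32, Ooep 38, Dppa4 54, Otx2 64 and Nphs1 110. The retained level was thus common among genes that WT cells lost, with Gdf3 (on 4 WT counts), Pou5f1 and Tdgf1 near its upper end and Nphs1 in its lower part.

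**Figure D4:**
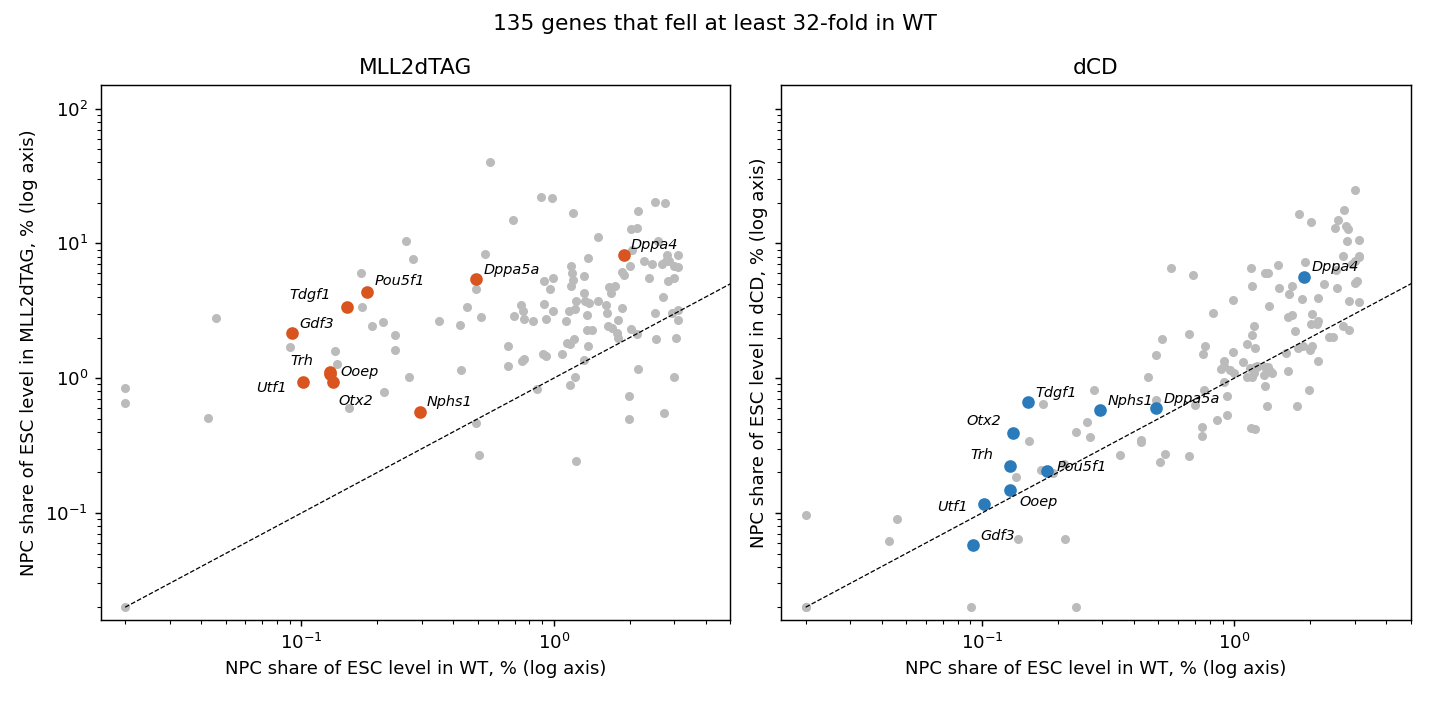
NPC share of the ESC level (percent, log axes) in MLL2dTAG (left) and dCD (right) against WT for 135 genes that fell at least 32-fold in WT; grey points are other genes, coloured points the 10 transcripts, the dashed line marks equal shares, and values under 0.02% are drawn at 0.02%. Most points lie above the line in MLL2dTAG (119 of 135), and 89 of 135 do so in dCD.

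Most other pluripotency genes examined were also higher in MLL2dTAG NPC. Of 24 general pluripotency genes that are not among the 10, 19 were higher in MLL2dTAG NPC than in WT NPC and 2 were lower, where 61.7% of all genes were called, 33.3% higher and 28.4% lower. Prdm14, a factor of naive and germ cells, was the highest at 4.11 (SE 0.48), and Tet1, a 5-methylcytosine oxidase, the lowest at -0.72 (SE 0.05). Prdm14 held 0.902 CPM in MLL2dTAG NPC and 0.0469 CPM in WT NPC. The WT value is near the limit of counting, so the size of the Prdm14 difference is loosely set. The summed level of the 24 was 371 to 373 CPM in WT NPC, 353 to 366 in dCD NPC and 628 to 640.3 in MLL2dTAG NPC. In ESC the sum was also higher in MLL2dTAG, at 6979 to 7106 CPM against 5522 to 5615 in WT. These NPC levels are therefore not shares of the ESC level. In dCD NPC 5 of the 24 were higher and 10 lower, with Dppa2 at 3.53 (SE 0.13). Nr0b1, an orphan receptor of stem cells, was the lowest there at -1.11 (SE 0.36), lost without WT NPC replicate 1 (-0.92) or 2 (-0.96) or dCD NPC replicate 3 (-0.75). Of 12 genes of the primed state, 5 were higher and 3 lower in MLL2dTAG NPC, from Dnmt3l, a DNA methylation cofactor, at 3.25 (SE 0.12) to Zic2 at -0.93 (SE 0.10). In dCD NPC 3 of these were higher and 5 lower, among them Pou3f1 at 1.28 (SE 0.13) and Dnmt3b at -0.52 (SE 0.06).

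Around Tdgf1 and Gdf3, 15 of 18 genes of the NODAL pathway were tested. In MLL2dTAG NPC 10 were higher and 3 lower, from Lefty2, a secreted NODAL inhibitor, at 3.52 (SE 0.21) to the receptor Acvr2b at -0.56 (SE 0.06). In dCD NPC, where Tdgf1 was above WT and Gdf3 was not called, 6 were higher and 4 lower, from Furin, which cleaves the NODAL precursor, at 0.55 (SE 0.05) to Acvr2b at -1.03 (SE 0.06). Around Otx2, 13 partners and anterior brain genes gave 5 higher and 4 lower in MLL2dTAG NPC. Emx2, a factor of the dorsal forebrain, was the lowest there at -3.67 (SE 0.10), and in dCD NPC, with 6 higher and 2 lower, it was again the lowest at -2.41 (SE 0.09). Around Ooep, 7 of 11 maternal and oocyte genes were tested, with 2 higher and 2 lower in MLL2dTAG NPC. The median log2 difference of the 7 was -0.95, against 0.03 over all genes. Tle6, a partner of Ooep, went against that median at 0.41 (SE 0.14), a call lost without MLL2dTAG NPC replicate 3 (0.31). In dCD NPC 1 of the 7 was higher and 2 were lower, with Tle6 at -0.87 (SE 0.16).

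Around Trh, 6 of 8 genes for processing, degrading or sensing the peptide were tested. In MLL2dTAG NPC 3 were higher and 3 lower. The convertase Pcsk1 was at 1.25 (SE 0.49), and its call was lost without WT NPC replicate 1 (0.96) or 2 (1.10), without MLL2dTAG NPC replicate 2 (1.04), and with only the compared groups (0.36). Qpct, which closes the peptide's N-terminus, was at -0.94 (SE 0.24) in MLL2dTAG NPC and at 2.14 (SE 0.18) in dCD NPC, where 5 of the 6 were higher and 0 lower. Around Nphs1, 9 of 10 slit diaphragm and podocyte genes were tested, with 2 higher and 6 lower in MLL2dTAG NPC. Kirrel2, whose protein binds nephrin and whose gene is the neighbour of Nphs1, was at 0.92 (SE 0.21), and Tcf21, a podocyte and mesoderm factor, at -4.58 (SE 0.13). In dCD NPC 4 were higher and 4 lower, with Wt1, a kidney factor, at -1.27 (SE 0.04).

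Summed markers of other cell types differed between MLL2dTAG and WT NPC. All 9 endoderm markers were higher in MLL2dTAG NPC, from Dab2 at 0.54 (SE 0.04) to Ttr at 2.54 (SE 0.18), and their summed level was 1009 to 1045 CPM against 475 to 491 in WT and 331 to 340.5 in dCD, where 7 were lower and 0 higher. No endoderm marker was at 0 counts in any group of NPC. Of 12 neural markers 5 were higher and 3 lower in MLL2dTAG NPC, and their sum was 411 to 426 CPM against 367 to 370.0 in WT. In dCD NPC it was 593 to 645 CPM, with 7 higher and 0 lower. Mesoderm markers summed to 217 to 224 CPM in MLL2dTAG NPC, with Mesp1 at 0 counts, against 70.6 to 72.8 in WT and 47.4 to 51.2 in dCD. Most of that was Kdr, and of 7 tested 2 were higher and 1 lower in MLL2dTAG. Germ cell markers, none at 0 counts, summed to 103 to 113 CPM against 57.8 to 59.8 in WT and 75.9 to 76.0 in dCD. Most of that was Kit, and of 8 tested 2 were higher and 3 lower in MLL2dTAG. Of all genes tested, 33.3% were called higher and 28.4% lower there. Trophoblast markers summed lower in MLL2dTAG NPC, to 62.4 to 65.3 CPM against 80.4 to 84.4 in WT. The part that these marker differences have in the levels of the 10 transcripts was not tested.

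Genes next to the 10 in RefSeq order were compared to see whether whole neighbourhoods moved. Beside Tdgf1, Lrrc2 was at 2.91 (SE 0.12) in MLL2dTAG NPC and 2.10 (SE 0.13) in dCD NPC, and Als2cl on the other side at 0.59 (SE 0.09) and 0.61 (SE 0.09). Beside Dppa4, its partner Dppa2 was at 3.39 (SE 0.13) in MLL2dTAG NPC and 3.53 (SE 0.13) in dCD NPC. These 3 were called higher in both lines, and Gm7204, on the other side of Dppa4, was called in neither. Other neighbours differed in both directions. In MLL2dTAG NPC H2-Q10 and Tcf19, beside Pou5f1, were at -2.58 and 0.42, Kndc1 and Gm16201, beside Utf1, at -0.82 and -1.80, Apobec1, beside Gdf3, at -1.77, Ddx43, beside Ooep, at -1.06, and Rbsn and Prickle2, beside Trh, at 0.28 and -0.25. Gsta1, beside Dppa5a, had 0 counts in ESC of all 3 lines and was 1.32 CPM in MLL2dTAG NPC, 0.157 in dCD NPC and 0.0186 in WT NPC.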

How the data were processed

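The deposited values are unnormalised counts of reads for each gene symbol, which the authors made with HTSeq per the submitters' processing notes from TruSeq Stranded mRNA libraries per the labels' protocols; aligner, genome build and strand setting are not in the sources used here. Columns were assigned by name; 6 columns whose names repeat were not used, nor were the 12 columns of another table. Of the counts from 1 to 10, 60.8% to 66.5% were even, so an alternative halved all counts.

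Counts were tested in R 4.3.3 with edgeR 4.0.16 (limma 3.58.1): filterByExpr, TMM factors (0.967 to 1.05), 1 mean per group over 18 libraries with 12 residual degrees of freedom, two-sided quasi-likelihood F tests and Benjamini-Hochberg adjustment over 20511 genes. Log2 differences carry a standard error from the F statistic. CPM use TMM factors. The share is the mean NPC CPM as a percent of the mean ESC CPM of the line, its SE from the SDs of both. Chi-square between replicates, over its degrees of freedom, was 2.19 to 10.5, above the noise of independent counts in every pair. The part of the excess of even counts in these values was not tested. Exon lengths came from a GENCODE annotation; neighbours and promoters from RefSeq. Reads carry no molecular identifiers, so limits cover counting error only and take counts as independent. The script was tested on simulated data. Alternatives were other scalings, no filter, DESeq2 1.42.0, halved counts, a replicate block, fewer groups and leaving out each library.

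The 10 genes, the gene lists and the tests were chosen with earlier results of these data known. Genes were named by a rule: the 10, the highest and lowest called gene of each list in each NPC comparison at 1 CPM or more, the nearest tested neighbours, the 5 genes most like the 10, and Kmt2b, Kmt2c and Kmt2d. A result that this rule would name is not reported here.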

Additional observations from a re-analysis of the deposited data

Results flagged for a closer look

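For 4 of the 10 transcripts the difference between dCD and WT was called different in NPC and in ESC. The WT libraries in it also chose the genes, which favours a higher value, and 37.8% of all genes at least 32-fold lower in WT NPC were called higher too. On the log2 scale the NPC difference minus the ESC difference was 2.12 for Tdgf1 and 1.58 for Dppa4, both in all 3 dCD NPC libraries. It was 1.63 for Otx2, on 8 WT and 24 dCD counts in NPC, and 0.97 for Nphs1, where the ESC level of dCD was the lower one. The last 2 were lost without WT NPC replicate 3 (1.05 and 0.74).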

How the results depend on the processing

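Counts of all genes called stayed within 1.5 times in every comparison and alternative. Over 776 alternatives for the 10 genes in dCD, 735 kept direction and side of the threshold, 14 lost a call, 1 gained one and 26 changed sign, all among differences that were not called. Leaving out 1 library gave log2 differences in ESC from -0.0114 to 0.121 for Utf1 and from -0.0179 to 0.0556 for Dppa4 (-0.00831 with only the compared groups). In NPC it gave -0.22 to 1.37 for Utf1, -3.42 to 0.56 for Gdf3, -0.19 to 0.30 for Trh, -0.30 to 0.13 for Nphs1 and -1.59 to 1.62 for Ooep. For the NPC minus ESC difference it gave -0.28 to 1.31 for Utf1 and -1.45 to 1.76 for Ooep. The number of the 10 called for that difference was 2 to 5 with a library left out and 2 with counts halved. The median share was 0.138% to 0.176% in WT and 1.53% to 1.77% in MLL2dTAG with a library left out, and 1.51% in MLL2dTAG with upper-quartile factors.

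Same-numbered libraries did not deviate together: over 45 pairs the correlation of their deviations was -0.0278 to 0.0320, and 2 of 18 libraries correlated best with their own number. With the replicate number as a block, 10810 genes were called in dCD NPC, against 10968 without it, and 6, 3 and 4 of the 10 were called in ESC, in NPC and for the difference between the stages, as without it.

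Depth limits the NPC values of Otx2, Gdf3, Ooep, Utf1, Trh and Nphs1, which had 4 to 49 counts over the 3 WT libraries. The p-values measure spread between libraries of 1 line each, so line and genotype cannot be told apart.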

Other observations

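The profile of the 10 transcripts over the 18 libraries, as the mean of their standardised log2 CPM, was most like that of Platr10 (Pearson r = 0.998), a noncoding RNA, then Triml1 (0.997), Pced1b (0.997), Fgf4 (0.997), a growth factor of stem cells, and Eprs (0.996), a transfer RNA synthetase, among 11794 genes of 5 CPM or more. The 10 themselves gave 0.977 (Nphs1) to 0.997 (Trh). The libraries fall into 2 stages, and each of these genes was lower in NPC than in ESC of WT. In MLL2dTAG NPC these 5 differed much in level: Platr10 was 1.66 CPM against 0.173 in WT and Fgf4 was 1.46 against 0.133, whereas Eprs was 430.1 against 333 and Pced1b was 15.8 against 9.81.

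Single germ cell and trophoblast markers were called in both directions in MLL2dTAG NPC. Of 8 germ cell markers 2 were higher and 3 lower, from Dazl at 2.64 (SE 0.11) to Ddx4 at -2.24 (SE 0.11), both RNA-binding germ cell proteins. Their summed level was above WT, most of it Kit, a receptor that ESC also express (named after its values were seen), at 77.3 ± 3.34 CPM against 22.8 ± 0.771 in WT (SD, n = 3). Of 7 trophoblast markers 3 were higher and 3 lower, from Tfap2a at 0.80 (SE 0.14) to Krt7 at -1.26 (SE 0.07), and their sum was 62.4 to 65.3 CPM against 80.4 to 84.4 in WT. Of 7 mesoderm markers tested 2 were higher and 1 lower, from Eomes at 2.40 (SE 0.37) to Tbx6 at -0.67 (SE 0.21). Most of the mesoderm sum was Kdr, a receptor of vascular and early mesoderm cells (also named after its values were seen), at 209 ± 3.53 CPM against 59.5 ± 1.04 in WT (SD, n = 3). In dCD NPC, Dazl was at 1.28 (SE 0.12) and Eomes at 2.93 (SE 0.35). In ESC, Gdf3 was 64.0 CPM in dCD and 76.7 CPM in MLL2dTAG against 42.2 CPM in WT.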
